A study of Mus musculus with 4 samples.

Results

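The genes described here are 38 genes of serine, folate one-carbon and nucleotide synthesis, given as a list of symbols and read in RNA-seq of stimulated CD4+ T cells of WT mice and of mice with an R111A transgene, a mutant Regnase-1. All 38 were found among the 16142 genes of the table, and all 38 passed a filter on low values (a mean of at least 1 FPKM over the 4 libraries), which 9831 genes passed. FPKM, the unit of every level given here, is the number of sequenced fragments of a gene, divided by the length of its transcript and by the size of the library, so levels of different genes can be compared per length.

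Proliferating T cells build serine from a glycolytic intermediate, pass its carbon to folate carriers in the cytosol and the mitochondria, and spend that carbon on purine rings and on thymidylate. The purine route starts from the activated ribose phosphate PRPP, the pyrimidine route joins its finished ring to PRPP, and ribonucleotide reductase turns the ribonucleotides into the deoxynucleotides of DNA. Resting T cells keep these enzymes low, and stimulation through the T cell receptor and CD28 is known to raise many of them.

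The cells were splenic CD4+ T cells that had been enriched, sorted by FACS and then stimulated for 12 h with 5 µg/mL anti-CD3 plus 1 µg/mL anti-CD28. The 2 WT libraries came from WT B6 mice and the 2 R111A libraries from mice with the alleles Cd4-CreERT2 and LSL-R111A fl/fl, with tamoxifen given i.p. at 75 mg/kg for 5 days, although the wording leaves unclear whether the WT mice of these libraries also received it, as WT mice in other experiments of the study did. In the R111A mice the Cre is tamoxifen-inducible and expressed from Cd4, and its action removes a STOP cassette ahead of a Regnase-1 transgene at Rosa26. The transgene is driven by the CAG promoter, carries a change at the site where the protease MALT1 cleaves Regnase-1 and is followed by EGFP, and FPKM of Zc3h12a do not tell it from the endogenous gene. For mice with a GFP reporter the sorting methods gate GFP+ cells first, a step that the RNA-seq methods do not repeat. Sex and age are not given for the single libraries, and the methods speak in general of young adults of both sexes. Sequencing depth relative to WT replicate 1, estimated from the steps between low values, was 0.996 for WT replicate 2, 0.951 for R111A replicate 1 and 0.845 for R111A replicate 2, and the absolute depth is unknown.

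The labels were checked first. Zc3h12a, which encodes Regnase-1, had 17.0 and 15.7 FPKM in WT against 196 and 131 FPKM in R111A. Both R111A libraries lay far above both WT libraries, and the log2 fold change of R111A over WT was 3.22 (SE 0.190, adjusted p = 9.2e-06). Of the CD4+ T cell markers, the 6 that were read summed to 1445 FPKM in each WT library and to 1179.5 and 1127 FPKM in the R111A libraries, with Cd3g the most abundant on average, and 3 were lower and 1 was higher. Cd4 itself had 157.5 and 131 FPKM in WT against 70.7 and 51.4 FPKM in R111A, which is a log2 fold change of −1.24 (SE 0.176, adjusted p = 0.00057).

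Markers of other cells were read in the same libraries. The 2 CD8+ T cell markers summed to 7.31 and 6.76 FPKM in WT and 3.88 and 4.46 FPKM in R111A, nearly all of it Cd8b1, with Cd8a at 0.20 FPKM or less in each library. The 6 myeloid markers summed to 2.22 and 0.90 FPKM in WT and 13.45 and 11.07 FPKM in R111A, with Cd68 the most abundant, and 2 of the 6 passed the filter, Cd68, which was higher, and Lyz2, which passed only through its R111A values. Lyz2 and Cd14 were listed at 0 in WT replicate 2, and Itgam in WT replicate 1. The 5 B cell markers summed to 2.13 and 0.95 FPKM in WT and 5.13 and 4.49 FPKM in R111A, led on average by Cd79a, and 2 of the 5, Cd79a and Cd79b, passed the filter, both only through their R111A values, while Pax5 was at 0.06 FPKM or less. The 4 NK cell markers summed to 20.3 and 23.25 FPKM in WT and 17.0 and 18.0 FPKM in R111A. Nkg7, the most abundant on average, was lower in R111A, at 19.3 and 22.8 FPKM in WT against 4.43 and 4.14 FPKM. The others were higher, with Klrd1 at 1.00 and 0.40 FPKM in WT against 12.1 and 13.6 FPKM in R111A. Ncr1 had 0.05 and 0 FPKM in WT against 0.30 and 0.12 FPKM in R111A, and Klrb1c 0 and 0.02 against 0.10 and 0.14 FPKM. The 5 erythroid markers summed to 0.66 and 0.70 FPKM in WT and 12.85 and 12.97 FPKM in R111A, most of it Hba-a1 in each library, with Hba-a2 and Hbb-bs listed at 0 in all 4 libraries. The 3 markers of regulatory T cells (Tregs) summed to 156 and 149 FPKM in WT and 133 and 135 FPKM in R111A, mostly Il2ra, and of these only Foxp3 was called, at 11.3 and 8.78 FPKM in WT and 2.86 and 1.86 FPKM in R111A. A marker that is under 1 FPKM in WT could be tested only if it was higher in R111A. The part of these cells in the results was not tested, and in bulk RNA fewer cells of a type and less RNA per cell cannot be told apart.

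The comparison asks how the R111A transgene changes the level of these genes in stimulated cells. Of the 38 genes, 32 were lower in R111A at an adjusted p under 0.05, where 32.1% of all genes tested were lower, and 2, Samhd1 and Ctps2, were higher, where 21.2% of all genes tested were. The 4 that did not pass were Dck, Umps, Cmpk1 and Nme2. Past a 2-fold change as well, 20 were lower, against 8.34% of all genes tested, and 0 were higher, against 8.52%. The counts past 2-fold moved with the processing, to 10 lower with quantile normalization, 12 with a pseudocount of 5 FPKM and 29 with TPM, and to 2 higher with quantile normalization or median-of-ratios factors, so those given for each role below hold for the deposited scale. Tk1 passed the filter only through its WT values. Among the 9300 genes that averaged 1 FPKM or more in each group, a choice made after the values were seen, 31 of 37 were lower, where 32.3% of the 9300 were, and 2 were higher, where 19.0% were. Both R111A libraries were below both WT libraries for 34 of the 38, against 46.3% of all genes tested, and above both for the other 4 (Dck, Samhd1, Ctps2 and Nme2), against 32.0%. Fold changes are on the scale of log2(FPKM + 1), which understates the change of genes with low levels. The median log2 fold change of the 38 was −1.04, with values from −2.20 for Dut to 0.94 for Samhd1, and the median of all genes tested was −0.12.

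Their summed level was 5144 and 5427 FPKM in the WT libraries and 3488 and 3358 FPKM in the R111A libraries. That is 0.642% and 0.649% of all FPKM in WT, and 0.331% and 0.332% in R111A, so the replicates lay close together and the groups apart. Nme2 alone supplied much of the sum. Without it WT had shares of 0.507% and 0.504%, and R111A of 0.205% and 0.207%. The plot of the members' levels by library shows every value.

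**Figure D1:**
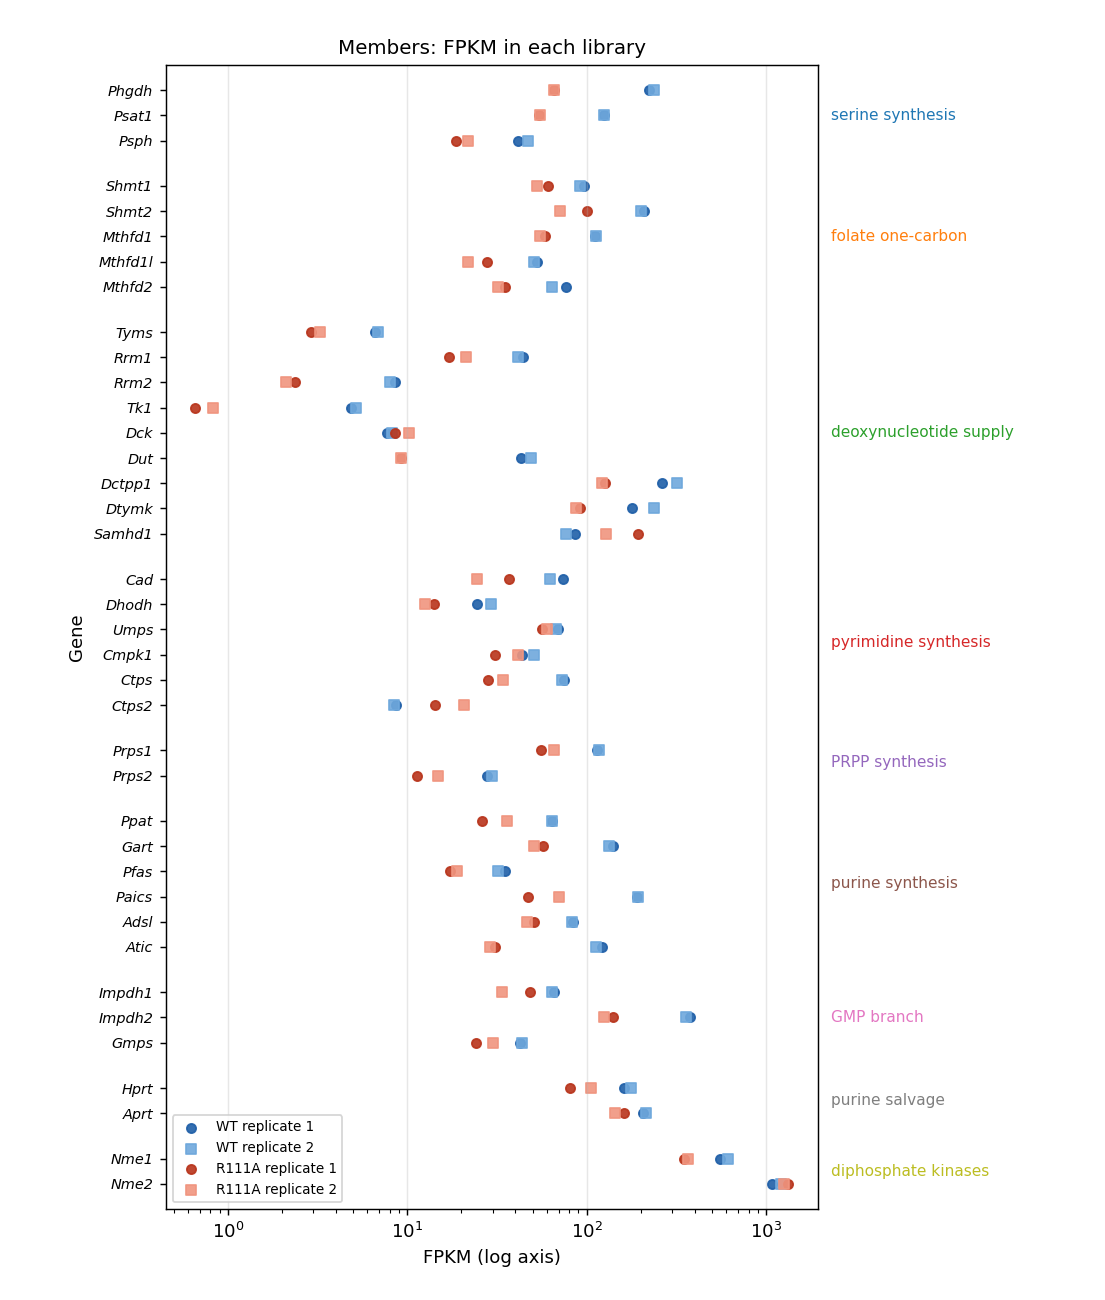
FPKM on a log10 axis of each of the 38 genes in the 2 WT and the 2 R111A libraries, 1 point for each library, ordered by role. The R111A points lie below the WT points for 34 genes and above them for Dck, Samhd1, Ctps2 and Nme2, and the levels run from 0.66 FPKM (Tk1, R111A) to 1328 FPKM (Nme2, R111A).

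The FPKM of a library summed to 801475 and 836143 in WT and to 1053551 and 1012215 in R111A, so scaling each library to the same total (TPM) shifts every gene down in R111A. The median of all genes tested moved from −0.12 to −0.42 with TPM, and that of the 38 from −1.04 to −1.37. Relative to the median of all genes, the 38 stood at −0.92 as deposited and at −0.95 with TPM. Among all genes, 3152 were lower and 2088 higher as deposited, so that 39.8% of the calls were higher, and with TPM 5128 were lower and 1337 higher, or 20.7%. Over the deposited scale, TPM, median-of-ratios factors and quantile normalization, 34 of the 38 had a negative and 2 a positive log2 fold change throughout, and Dck and Nme2 turned from positive to negative with TPM. The plot of the scalings follows each gene through the 4 of them.

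**Figure D2:**
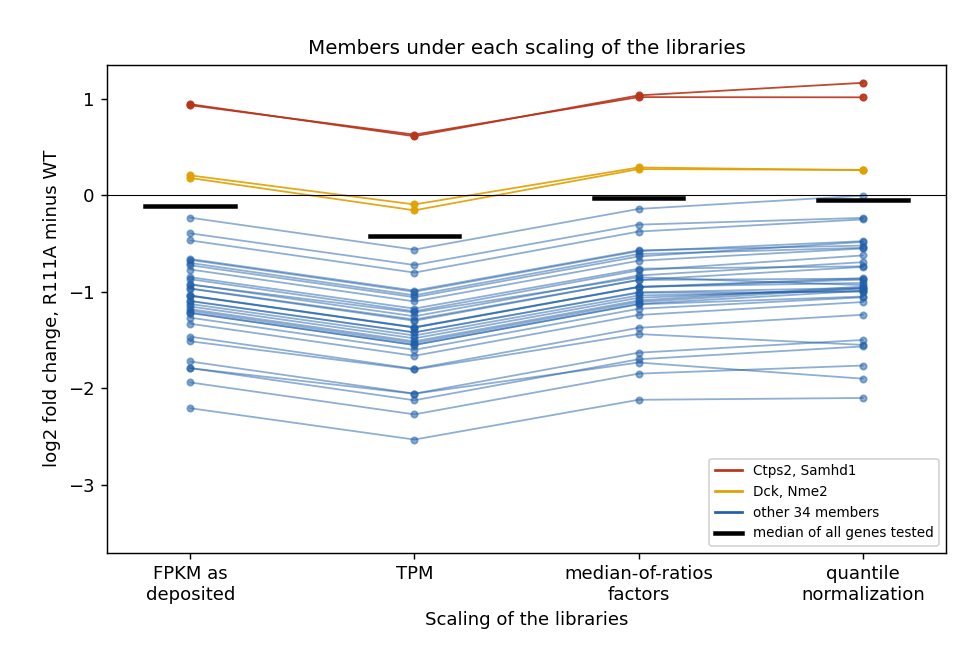
Log2 fold change of R111A over WT (y axis) of each of the 38 genes under 4 scalings of the libraries (x axis), 1 line for each gene, with a black bar at the median of all genes tested. With TPM the bar moves to −0.42 and the lines move with it, and Dck (0.21 to −0.094) and Nme2 (0.18 to −0.15) change sign, while Samhd1 and Ctps2 are above 0 under all 4.

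**Figure D3:**
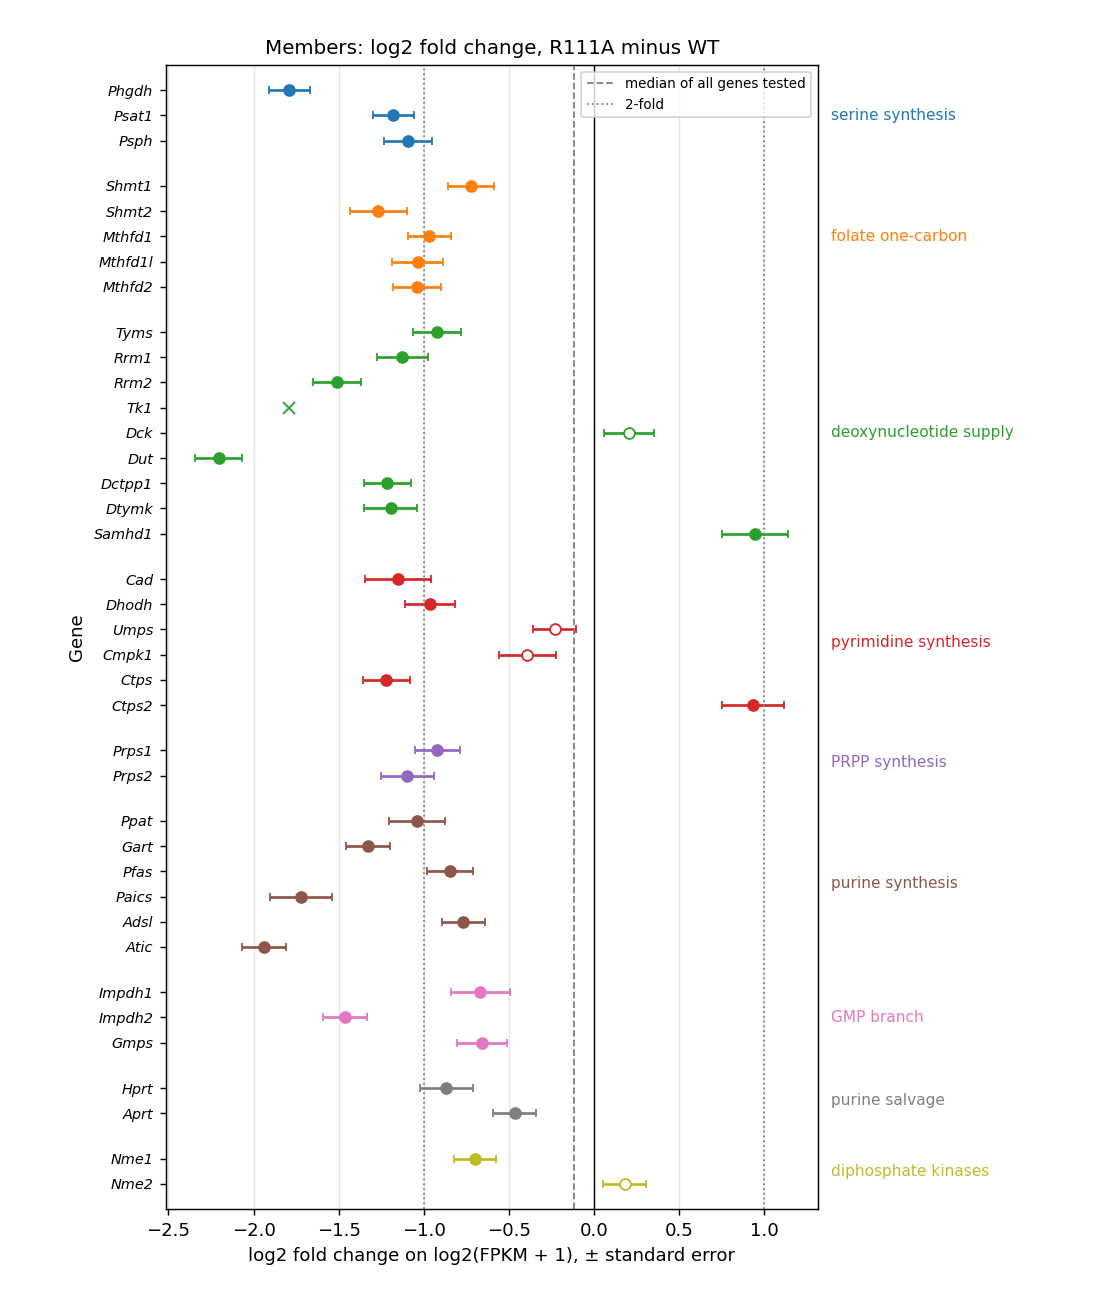
Log2 fold change of R111A over WT on log2(FPKM + 1) (x axis) of each of the 38 genes by role (y axis), with bars of 1 standard error; filled points passed an adjusted p under 0.05, open points did not, and a cross with no bar marks Tk1, under 1 FPKM in R111A. Of the 38, 31 filled points and the cross lie to the left of 0, 2 filled ones (Samhd1 at 0.94, Ctps2 at 0.93) to the right, and Umps, Cmpk1, Dck and Nme2 are open, of which Dck and Nme2 change sign with TPM.

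The plot of fold changes by role gives the size and the error for each gene, and the roles are taken in turn. Serine synthesis had 3 genes and all 3 fell past 2-fold. Phgdh, which oxidises phosphoglycerate and commits it to serine, had 223 and 237 FPKM in WT against 65.5 and 66.2 FPKM in R111A. The replicates of each group were nearly equal and the groups did not overlap, with R111A at 28.6% of WT on average and a log2 fold change of −1.79 (SE 0.122, adjusted p = 1.5e-05). Phgdh (NCBI gene 236539, chr3:98313171-98339969 in GRCm38.p6) is uncertain in its level, because 61.3% of the 50-base windows of its transcripts also occur in transcripts of other genes, 49.2% in the pseudogene Gm7901. Psat1, the transaminase of the next step, had 125 and 126 FPKM in WT against 54.5 and 54.9 FPKM in R111A. Psph, the phosphatase that releases serine, had 41.4 and 47.0 FPKM in WT against 18.7 and 21.7 FPKM in R111A. For both, each R111A library was under each WT library, with log2 fold changes of −1.18 for Psat1 (SE 0.122, adjusted p = 0.00011) and −1.09 for Psph (SE 0.143, adjusted p = 0.00037). Psph shares none of its windows with another gene. Together the 3 genes summed to 389 and 409 FPKM in WT and to 139 and 143 FPKM in R111A.

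The folate enzymes had 5 genes and all 5 fell, 3 of them past 2-fold, with a median log2 fold change of −1.04. Shmt2, the mitochondrial enzyme that moves a carbon from serine to folate and leaves glycine, had 209.9 and 200.5 FPKM in WT against 100.3 and 71.5 FPKM in R111A. Shmt1, which does the same in the cytosol, had 97.4 and 92.4 FPKM in WT against 61.2 and 53.2 FPKM in R111A. In both, R111A replicate 2 was the lowest library and the groups did not overlap. The log2 fold change was −1.27 for Shmt2 (SE 0.169, adjusted p = 0.00041) and −0.72 for Shmt1 (SE 0.133, adjusted p = 0.0021). Shmt2 stood at 2.16 and 2.17 times Shmt1 in WT and at 1.64 and 1.34 times Shmt1 in R111A.

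Further along the mitochondrial arm, Mthfd2, a dehydrogenase and cyclohydrolase, had 76.5 and 64.0 FPKM in WT against 35.1 and 32.1 FPKM in R111A. Mthfd1l, which releases the carbon as formate, had 53.1 and 50.6 FPKM in WT against 27.98 and 21.9 FPKM in R111A. Mthfd1, the cytosolic enzyme with 3 activities that takes the formate up again, had 111.03 and 112 FPKM in WT against 58.5 and 54.8 FPKM in R111A. The R111A libraries were lower throughout, by a log2 fold change of −1.04 for Mthfd2 (SE 0.142, adjusted p = 0.00047), −1.04 for Mthfd1l (SE 0.152, adjusted p = 0.00066) and −0.97 for Mthfd1 (SE 0.124, adjusted p = 0.00033). The ratio of Mthfd1l to Mthfd1 overlapped between the groups, at 0.4785 and 0.451 in WT and 0.478 and 0.400 in R111A (exact permutation p = 0.667, two-sided).

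Deoxynucleotide supply had 9 genes, of which Tk1 passed the filter only through its WT values and is left out of the calls given here. Tyms was lower, and Dut, Dtymk, Rrm1, Rrm2 and Dctpp1 were lower past 2-fold. Samhd1 rose and Dck did not pass. Dut, the dUTPase that keeps uracil out of DNA and supplies dUMP, had 43.3 and 49.3 FPKM in WT against 9.23 and 9.25 FPKM in R111A. The R111A replicates were nearly identical and far under WT, and the log2 fold change of −2.20 (SE 0.137, adjusted p = 1.1e-05) was the lowest of the 38. None of the 50-base windows of Dut (NCBI gene 110074, chr2:125247248-125259049) occur in another gene. Tyms, which methylates dUMP to thymidylate with a folate carbon, had 6.62 and 6.87 FPKM in WT against 2.91 and 3.26 FPKM in R111A, and shares 9.80% of its windows with other genes. Its R111A libraries were both under WT, with a log2 fold change of −0.92 (SE 0.140, adjusted p = 0.00079). Dtymk, the kinase that acts on thymidylate, had 179 and 239 FPKM in WT against 92.0 and 87.2 FPKM in R111A. Its WT libraries were further apart than its R111A libraries and did not overlap them, with a log2 fold change of −1.20 (SE 0.158, adjusted p = 0.00039).

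Ribonucleotide reductase is built from the large subunit Rrm1 and a small subunit, Rrm2 in dividing cells or Rrm2b outside S phase. Rrm1 had 44.0 and 41.7 FPKM in WT against 17.1 and 21.4 FPKM in R111A. Rrm2 had 8.51 and 7.99 FPKM in WT against 2.37 and 2.12 FPKM in R111A. Rrm2b had 3.36 and 3.06 FPKM in WT against 3.38 and 5.06 FPKM in R111A. Rrm1 and Rrm2 lay under WT in both R111A libraries, with log2 fold changes of −1.13 (SE 0.149, adjusted p = 4e-04) and −1.51 (SE 0.140, adjusted p = 6.2e-05), whereas Rrm2b was not called at 0.29 (SE 0.179, adjusted p = 0.20). Without R111A replicate 1, Rrm2b was called higher (0.53, adjusted p = 0.01, with a range from 0.01 to 0.90 over the alternatives). Rrm2 was 2.53 and 2.61 times Rrm2b in WT and 0.701 and 0.419 times Rrm2b in R111A, so that the larger of the pair was Rrm2 in the WT libraries and Rrm2b in the R111A libraries (exact permutation p = 0.33, two-sided, the smallest that 2 libraries against 2 can give).

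The thymidine kinases were also read as a pair. Tk1, the cytosolic enzyme of S phase, had 4.88 and 5.19 FPKM in WT against 0.66 and 0.83 FPKM in R111A. R111A stood at 14.8% of WT. Since Tk1 averaged under 1 FPKM in R111A, it passed the filter only through its WT values and no test of it is given. It is counted among the 32 lower genes, and 31 of 37 were lower without it. Tk2, the mitochondrial enzyme, had 12.3 and 12.9 FPKM in WT against 20.2 and 17.5 FPKM in R111A. Both R111A libraries were above WT and Tk2 was called higher at 0.54 (SE 0.141, adjusted p = 0.011), a call that was lost with TPM (0.23, adjusted p = 0.20) and without WT replicate 1 (0.51, adjusted p = 0.16) or WT replicate 2 (0.58, adjusted p = 0.11), while the adjusted p ran from 0.002 to 0.20 over the alternatives. The ratio of Tk1 to Tk2 was 0.397 and 0.402 in WT and 0.0327 and 0.0473 in R111A, a log2 difference of −3.34 that is also given with no test.

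Dck, which phosphorylates deoxycytidine and other salvaged deoxynucleosides, had 7.70 and 8.27 FPKM in WT against 8.61 and 10.2 FPKM in R111A. Both R111A libraries were slightly above WT, but the log2 fold change of 0.21 (SE 0.147, adjusted p = 0.26) did not pass and was −0.094 with TPM. It passed without R111A replicate 1 (0.32, adjusted p = 0.041, with adjusted p from 0.041 to 0.71 over the alternatives). Dguok, its mitochondrial counterpart for purine deoxynucleosides, had 19.7 and 17.0 FPKM in WT against 24.8 and 23.4 FPKM in R111A. It passed at 0.38 (SE 0.140, adjusted p = 0.047), but not with TPM (0.062, adjusted p = 0.75), without a filter (0.38, adjusted p = 0.069) or without WT replicate 1 (0.48, adjusted p = 0.19) or WT replicate 2 (0.28, adjusted p = 0.48), and its adjusted p ran from 0.02 to 0.75. The ratio of Dck to Dguok overlapped, at 0.391 and 0.487 in WT and 0.347 and 0.435 in R111A (exact permutation p = 0.667).

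Dctpp1, which clears dCTP and its modified forms, had 263 and 319.9 FPKM in WT against 127 and 122 FPKM in R111A. Its WT replicates differed more than its R111A replicates, the groups did not overlap, and the log2 fold change was −1.22 (SE 0.138, adjusted p = 0.00017). Samhd1, which breaks deoxynucleoside triphosphates down, had 86.3 and 76.8 FPKM in WT against 195 and 128 FPKM in R111A. Both R111A libraries were above both WT libraries, although R111A replicate 1 was well above replicate 2. Samhd1 (NCBI gene 56045, chromosome 2) rose by a log2 fold change of 0.94 (SE 0.195, adjusted p = 0.0038), or 0.61 with TPM (adjusted p = 0.0087), and it passed in all 14 alternatives, with log2 fold changes from 0.61 to 1.25 and adjusted p from 1.8e-08 to 0.037. Myeloid cells also express Samhd1, and the libraries were made from cells enriched and sorted as CD4+ T cells. The 6 myeloid markers summed to 0.90 to 2.22 FPKM in WT and to 11.07 and 13.45 FPKM in R111A. Cd68, the most abundant, had 1.54 and 0.78 FPKM in WT against 8.89 and 6.81 FPKM in R111A. Lyz2 had 0.45 and 0 FPKM in WT against 3.01 and 2.37 FPKM in R111A, and Adgre1 0.04 and 0.04 against 0.77 and 1.04 FPKM. Itgam had 0 and 0.03 FPKM in WT against 0.54 and 0.39 FPKM in R111A, and Cd14 0.16 and 0 against 0.17 and 0.39 FPKM. Csf1r had 0.03 and 0.05 FPKM in WT against 0.07 and 0.07 FPKM in R111A. The part of myeloid cells in the rise was not tested.

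Pyrimidine synthesis had 6 genes, of which 3 fell, 2 past 2-fold, 1 rose and 2 did not pass. Cad, the protein that carries the first 3 activities of the route, had 73.6 and 62.8 FPKM in WT against 36.8 and 24.5 FPKM in R111A. Dhodh, the mitochondrial dehydrogenase of the next step, had 24.6 and 29.5 FPKM in WT against 14.1 and 12.6 FPKM in R111A. Umps, which joins the ring to PRPP and gives UMP, had 69.6 and 67.3 FPKM in WT against 56.5 and 59.9 FPKM in R111A. All 3 were lower in both R111A libraries than in WT, by different amounts. Cad and Dhodh fell, by log2 fold changes of −1.15 (SE 0.193, adjusted p = 0.0013) and −0.96 (SE 0.149, adjusted p = 0.00088). Umps did not pass at −0.23 (SE 0.125, adjusted p = 0.15), but did with TPM (−0.56, adjusted p = 0.0038) and without R111A replicate 2 (−0.27, adjusted p = 0.035), its adjusted p running from 0.0038 to 0.98.

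Cmpk1, the kinase of UMP and CMP, had 44.0 and 50.7 FPKM in WT against 30.8 and 41.4 FPKM in R111A. R111A replicate 2 came close to WT replicate 1, and the log2 fold change of −0.39 (SE 0.168, adjusted p = 0.079) did not pass. It passed with TPM (−0.72, adjusted p = 0.0026) and with a replicate block (adjusted p = 0.029), although pairing of the libraries is not established. Without R111A replicate 2 the value was −0.60. With quantile normalization it was −0.23 (adjusted p = 0.31).

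The final step to CTP has a pair of enzymes, and they moved in opposite directions. Ctps, the CTP synthase known for its part in lymphocyte proliferation, had 75.3 and 72.8 FPKM in WT against 28.4 and 34.3 FPKM in R111A. Ctps2, the other CTP synthase, had 8.62 and 8.42 FPKM in WT against 14.3 and 20.6 FPKM in R111A. For each gene the groups were apart, with Ctps low and Ctps2 high in both R111A libraries. Ctps fell, with a log2 fold change of −1.22 (SE 0.141, adjusted p = 0.00019), and Ctps2 (NCBI gene 55936, X chromosome) rose by 0.93 (SE 0.181, adjusted p = 0.0028), or by 0.63 with TPM (adjusted p = 0.011). Ctps2 passed in all 14 alternatives, with log2 fold changes from 0.63 to 1.18 and adjusted p from 4.2e-07 to 0.027. Ctps was 8.74 and 8.64 times Ctps2 in WT and 1.99 and 1.665 times Ctps2 in R111A, a log2 difference of −2.26 (exact permutation p = 0.33), and this ratio within a library is not changed by a factor common to all genes of the library. No 50-base window is shared by Ctps and Ctps2.

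PRPP, the activated ribose of both routes, is made by Prps1 and Prps2, and both fell. Prps1 had 115 and 117 FPKM in WT against 56.0 and 65.55 FPKM in R111A, and shares 10.1% of its windows with Prps1l3, so that its level is uncertain to that extent. Prps2 had 27.9 and 29.8 FPKM in WT against 11.3 and 14.8 FPKM in R111A. Each had its R111A libraries well under WT and R111A replicate 1 the lowest. The log2 fold change was −0.92 for Prps1 (SE 0.134, adjusted p = 0.00063) and −1.10 for Prps2 (SE 0.158, adjusted p = 0.00061), and the ratio of Prps2 to Prps1 was 0.243 and 0.256 in WT and 0.2025 and 0.2255 in R111A (exact permutation p = 0.33).

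The purine ring is built on PRPP by 6 enzymes of the list, and all 6 genes fell, 4 of them past 2-fold. Ppat, which commits PRPP to purines, had 64.2 and 64.5 FPKM in WT against 26.25 and 36.0 FPKM in R111A. Gart, which carries 3 of the later activities, had 140.2 and 134 FPKM in WT against 57.4 and 50.8 FPKM in R111A. Pfas, which adds a nitrogen from glutamine, had 34.9 and 32.1 FPKM in WT against 17.4 and 18.9 FPKM in R111A. The R111A libraries were under WT for each of them, by log2 fold changes of −1.04 for Ppat (SE 0.165, adjusted p = 0.001), −1.33 for Gart (SE 0.130, adjusted p = 7.8e-05) and −0.85 for Pfas (SE 0.135, adjusted p = 0.001). Paics, which carries a carboxylase and the next ligase, had 190.0 and 193 FPKM in WT against 47.05 and 70.0 FPKM in R111A. Adsl, which releases fumarate in this route and again on the way to AMP, had 84.5 and 83.1 FPKM in WT against 50.9 and 46.7 FPKM in R111A. Atic, which adds the last folate carbon and closes the ring to IMP, had 122 and 113 FPKM in WT against 31.0 and 29.0 FPKM in R111A. Here too no R111A library reached a WT library, and the log2 fold change was −1.72 for Paics (SE 0.183, adjusted p = 0.00012), −0.77 for Adsl (SE 0.127, adjusted p = 0.0012) and −1.94 for Atic (SE 0.128, adjusted p = 1.4e-05).

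As percentages of the WT mean, R111A stood at 25.5% for Atic and at 30.6% for Paics, and the 6 genes together summed to 636 and 620.1 FPKM in WT and to 229.95 and 251 FPKM in R111A. Atic also had R111A replicates that were nearly equal, while those of Paics and Ppat were further apart, with replicate 2 the higher in each.

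Paics and Ppat overlap at their 5′ ends on opposite strands of chromosome 5, with starts 276 bases apart, so that the bases before the start of each lie inside the other gene. They are shown with Atic as genes of purine synthesis that were lower. The sequences are the 250 bases before the start of each gene from RefSeq (GRCm38.p6), read 5′ to 3′ on the gene's strand. They are chr5:76951052-76951301 on the plus strand for Paics, chr5:76951579-76951828 on the minus strand for Ppat and chr1:71556906-71557155 on the plus strand for Atic. Capitals mark the E-box CACGTG (7 bases before the start in Atic and 203 in Paics), CCAAT, and in Ppat the E2F word TTTCCCGC read on the other strand as GCGGGAAA (211 and 158 bases before the start).
Paics: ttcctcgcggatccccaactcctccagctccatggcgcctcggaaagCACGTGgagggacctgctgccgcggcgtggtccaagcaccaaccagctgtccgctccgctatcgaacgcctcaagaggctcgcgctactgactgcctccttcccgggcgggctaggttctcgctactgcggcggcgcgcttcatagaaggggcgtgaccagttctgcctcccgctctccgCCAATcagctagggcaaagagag
Ppat: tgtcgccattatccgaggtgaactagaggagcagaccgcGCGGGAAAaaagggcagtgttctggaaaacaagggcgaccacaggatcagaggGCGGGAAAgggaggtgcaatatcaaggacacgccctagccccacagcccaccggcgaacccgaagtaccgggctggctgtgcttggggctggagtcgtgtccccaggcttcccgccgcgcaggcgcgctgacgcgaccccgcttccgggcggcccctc
Atic: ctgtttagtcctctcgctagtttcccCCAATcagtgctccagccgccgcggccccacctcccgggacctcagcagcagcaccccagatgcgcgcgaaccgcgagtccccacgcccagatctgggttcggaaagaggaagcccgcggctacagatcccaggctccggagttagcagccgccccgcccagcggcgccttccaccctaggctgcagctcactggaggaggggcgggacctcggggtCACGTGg

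RefSeq promoters of 300 bases, 250 before and 50 after the start, matched 36 of the 38 genes by NCBI gene ID, with Dhodh and Pfas not matched, and gave 43 promoters. The E-box CACGTG, the word bound by Myc and related factors, was in those of 6 of the 36 genes (Tyms, Dtymk, Paics, Atic, Impdh2 and Nme1). By promoter this is 16.3% of the 43, against 7.15% of all 32851 RefSeq promoters. The E2F words TTTCGCGC, TTTGGCGC and TTTCCCGC were in promoters of 2 genes, Ppat and Prps2, or 4.65% of the 43 against 1.845% of all. CCAAT, the word of NF-Y, was in promoters of 16 genes, or 37.2% of the 43 against 37.4% of all, among them those of Phgdh, Psat1, Psph, Rrm1 and Rrm2. The ATF4 word TGATGCAA was in none of the 43 and in 0.895% of all. Both strands were searched, the words of different factors do not contain each other, and a match says only that the letters are there.

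IMP is turned into GMP by Impdh1 or Impdh2 and then Gmps, and all 3 genes fell, 1 past 2-fold. Impdh2, the isozyme that is induced in dividing lymphocytes, had 376 and 358 FPKM in WT against 141 and 124 FPKM in R111A. Impdh1 had 65.5 and 64.4 FPKM in WT against 48.2 and 34.0 FPKM in R111A. Gmps had 42.8 and 43.6 FPKM in WT against 24.1 and 30.2 FPKM in R111A. The groups were apart for all 3, widely for Impdh2 and less so for the others, whose R111A replicates differed. The log2 fold change was −1.46 for Impdh2 (SE 0.127, adjusted p = 4.5e-05), −0.67 for Impdh1 (SE 0.172, adjusted p = 0.011) and −0.66 for Gmps (SE 0.147, adjusted p = 0.0057). The call of Impdh1 was lost with quantile normalization (−0.47, adjusted p = 0.058) and without a filter (−0.67, adjusted p = 0.053), with adjusted p from 1e-04 to 0.058 over the alternatives. That of Gmps was lost without WT replicate 2 (−0.64, adjusted p = 0.06, with a range from 0.00017 to 0.06).

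Impdh2 was 5.74 and 5.56 times Impdh1 in WT and 2.92 and 3.665 times Impdh1 in R111A (exact permutation p = 0.33). The level of Impdh2 is uncertain, because 67.6% of its 50-base windows also occur in the pseudogene Impdh2-ps, while none are shared with Impdh1. The 250 bases before the start of Impdh2 (RefSeq, GRCm38.p6, chr9:108560186-108560435, plus strand), shown for the E-box in capitals, 110 bases before the start, read as follows.
Impdh2: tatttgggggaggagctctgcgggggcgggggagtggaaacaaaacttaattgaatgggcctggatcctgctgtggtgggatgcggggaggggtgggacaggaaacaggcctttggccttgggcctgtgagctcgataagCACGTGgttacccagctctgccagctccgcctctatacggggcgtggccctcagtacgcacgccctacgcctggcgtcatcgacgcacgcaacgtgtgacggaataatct

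Salvage of purine bases is done by Hprt, which takes hypoxanthine and guanine, and Aprt, which takes adenine. Hprt had 162 and 177 FPKM in WT against 80.7 and 105 FPKM in R111A. Aprt had 208 and 215 FPKM in WT against 162 and 144 FPKM in R111A. Both R111A libraries were under both WT libraries for each gene. Hprt fell, with a log2 fold change of −0.87 (SE 0.155, adjusted p = 0.0018), to 54.9% of WT, and with TPM the value was −1.20. Aprt fell with a log2 fold change of −0.47 (SE 0.126, adjusted p = 0.014), but did not pass with quantile normalization (−0.25, adjusted p = 0.12), without WT replicate 1 (−0.49, adjusted p = 0.12) or without WT replicate 2 (−0.44, adjusted p = 0.17), its adjusted p running from 0.00018 to 0.17.

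The nucleoside diphosphate kinases Nme1 and Nme2 pass phosphate between nucleotides and had the highest levels of the 38. Nme1 had 553 and 616 FPKM in WT against 350.1 and 367 FPKM in R111A. Nme2 had 1083 and 1211 FPKM in WT against 1328 and 1267 FPKM in R111A. Nme1 was lower in both R111A libraries, with a log2 fold change of −0.70 (SE 0.125, adjusted p = 0.0018). Nme2 was a little higher in both R111A libraries but did not pass, at 0.18 (SE 0.125, adjusted p = 0.25) and −0.15 with TPM, and it was called in 0 of 14 alternatives, with adjusted p from 0.072 to 0.76. The ratio of Nme1 to Nme2 was 0.5105 and 0.508 in WT and 0.264 and 0.290 in R111A, a log2 difference of −0.88 (exact permutation p = 0.33). No 50-base window is shared by Nme1 and Nme2 themselves, but 47.0% of those of Nme2 and 11.1% of those of Nme1 occur in the read-through transcript Gm20390, so both levels are uncertain, that of Nme2 more.

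Nme1 and Nme2 are neighbours on the minus strand of chromosome 11, with their nearest starts 11769 bases apart, and each has a pair of RefSeq promoters. They are shown as the starts of the most abundant pair of the 38. The word CACGTG, in capitals, is in both Nme1 sequences (18 and 29 bases before the start) and in neither Nme2 sequence. The 250 bases before each start in GRCm38.p6 are chr11:93968273-93968522 and chr11:93968026-93968275 for Nme1, and chr11:93956257-93956506 and chr11:93955784-93956033 for Nme2.
Nme1, upstream start: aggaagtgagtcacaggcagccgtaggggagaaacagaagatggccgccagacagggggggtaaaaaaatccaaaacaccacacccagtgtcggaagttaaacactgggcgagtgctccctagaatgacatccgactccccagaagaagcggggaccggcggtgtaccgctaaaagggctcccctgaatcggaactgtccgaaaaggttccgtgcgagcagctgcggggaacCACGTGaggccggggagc
Nme1, downstream start: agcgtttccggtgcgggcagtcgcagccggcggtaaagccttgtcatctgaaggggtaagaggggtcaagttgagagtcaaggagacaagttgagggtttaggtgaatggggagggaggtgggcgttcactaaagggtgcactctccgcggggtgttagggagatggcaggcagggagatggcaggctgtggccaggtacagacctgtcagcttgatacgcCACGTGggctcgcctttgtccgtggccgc
Nme2, upstream start: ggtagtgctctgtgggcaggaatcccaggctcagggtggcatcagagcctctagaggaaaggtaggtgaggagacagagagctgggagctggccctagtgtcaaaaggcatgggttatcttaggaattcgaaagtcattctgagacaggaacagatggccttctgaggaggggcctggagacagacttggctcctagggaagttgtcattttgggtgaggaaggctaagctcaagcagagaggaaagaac
Nme2, downstream start: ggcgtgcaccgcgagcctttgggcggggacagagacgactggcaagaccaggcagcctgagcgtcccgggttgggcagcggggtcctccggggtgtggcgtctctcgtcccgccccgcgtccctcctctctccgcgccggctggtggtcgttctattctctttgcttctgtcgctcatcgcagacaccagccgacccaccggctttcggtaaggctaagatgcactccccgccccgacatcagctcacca

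Ratios of related enzymes within a library were taken for 10 pairs. In 7 the R111A ratios were both under the WT ratios, in 0 both above, and in 3 the groups overlapped. The share of other gene pairs whose ratios separate in this way was not computed, so these counts have no background. For single genes, both R111A libraries were below both WT libraries in 46.3% of all genes tested. The 7 were Rrm2 to Rrm2b, Tk1 to Tk2, Impdh2 to Impdh1, Prps2 to Prps1, Ctps to Ctps2, Shmt2 to Shmt1 and Nme1 to Nme2. That of Tk1 to Tk2 is given with no test, because Tk1 was under 1 FPKM in R111A. The others each had an exact permutation p of 0.33, the smallest this design allows, so none can pass a threshold of 0.05. The log2 difference was −3.34 for Tk1 to Tk2, −2.26 for Ctps to Ctps2, −2.25 for Rrm2 to Rrm2b and −0.22 for Prps2 to Prps1. The 3 that overlapped were Dck to Dguok, Mthfd1l to Mthfd1, and Mthfd2 to Mthfd2l, the last at 75.7 and 61.0 in WT against 65.0 and 40.6 in R111A. Mthfd2l, the other mitochondrial form of Mthfd2, had 0.54 and 0.79 FPKM in R111A and averaged under 1 FPKM over the libraries, so it was not tested.

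**Figure D4:**
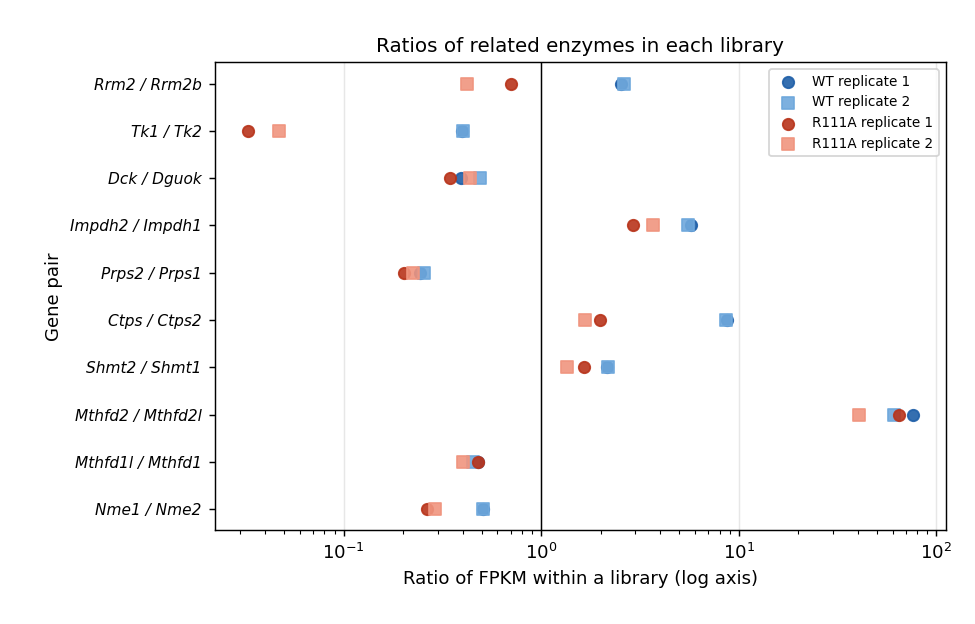
Ratio of FPKM of 2 enzymes in the same library (log axis), 1 point for each WT or R111A library, for 10 pairs. The R111A points lie under the WT points for 7 pairs and overlap for 3, and no share over other gene pairs was computed. The points of Tk1 to Tk2 (0.397 and 0.402 in WT, 0.0327 and 0.0473 in R111A) rest on Tk1 levels under 1 FPKM in R111A.

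The replicates of R111A were further apart than those of WT. Over 1938 genes that averaged 50 FPKM or more, the robust SD of the log2 ratio of the replicates was 0.126 in WT and 0.319 in R111A. For the 38 genes it was 0.125 in WT and 0.291 in R111A, and R111A replicate 1 was above replicate 2 in 18 of the 38, so neither R111A library was the lower one throughout.

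Other genes of folate, methionine, glycine and nucleotide metabolism were read beside the 38. Of 67 such genes in the table, 56 passed the filter, 4 of them (Ak1, Cmpk2, Adssl1 and Ampd1) only through their R111A values and 2 (Ak4, and Slc46a1, named here after its values were seen) only through their WT values. These 6 are left out of the counts, a choice made after the values were seen, and the first 5 are given by their levels with no test. Of the other 50, 24 were lower (14 past 2-fold), 7 were higher (0 past 2-fold) and 19 did not pass, where 32.3% of the 9300 genes at 1 FPKM or more in each group were lower and 19.0% higher. Past 2-fold, 8.09% of the 9300 were lower and 6.39% higher. The median log2 fold change was −0.34, beside −0.13 for the 9300. With TPM, 35 of the 50 were lower and 1 was higher, where 53.0% and 11.1% of the 9300 were. Sfxn1, the transporter that carries serine into mitochondria, had 57.2 and 58.9 FPKM in WT against 13.2 and 13.5 FPKM in R111A. Gcsh, a carrier protein of the glycine cleavage system, had 127 and 138 FPKM in WT against 39.8 and 44.4 FPKM in R111A. These 2 genes flank Shmt2 in the route of the carbon, and both were lower in each R111A library, with log2 fold changes of −2.04 (SE 0.128, adjusted p = 1.1e-05) and −1.63 (SE 0.131, adjusted p = 3.1e-05).

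Ahcy and Mtap, which clear products of methyl and polyamine metabolism, had log2 fold changes of −1.38 (SE 0.123, adjusted p = 5e-05) and −1.24 (SE 0.127, adjusted p = 1e-04). Dctd, the deaminase that supplies dUMP to Tyms, had 29.1 and 26.8 FPKM in WT against 7.38 and 8.70 FPKM in R111A, which is a log2 fold change of −1.68 (SE 0.144, adjusted p = 4.3e-05). Of 21 genes of nucleoside salvage and breakdown tested, 5 were lower, where 32.3% of the 9300 were, 5 were higher, where 19.0% were, and 11 did not pass; with TPM 12 were lower and 1 was higher, where 53.0% and 11.1% were. Among them Ada fell, with a log2 fold change of −1.18 (SE 0.158, adjusted p = 0.00041), while Pnp at 0.11 (SE 0.134, adjusted p = 0.52) and Adk at −0.25 (SE 0.175, adjusted p = 0.27) did not pass. With TPM, Pnp was at −0.22, and Adk passed as lower (−0.58, adjusted p = 0.012), as it did without R111A replicate 2 (−0.50, adjusted p = 0.0032, with a range from 0.0032 to 0.96). Xdh, an oxidase of purine breakdown that is named here after its values were seen, had 2.39 and 1.96 FPKM in WT against 4.06 and 5.43 FPKM in R111A. The uridine kinase Uck2 fell past 2-fold, with 172 and 166 FPKM in WT against 88.9 and 79.5 FPKM in R111A (adjusted p = 0.00031), and the nucleoside transporter Slc29a2 had a log2 fold change of −1.36 (SE 0.138, adjusted p = 9.4e-05).

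On the way from IMP to AMP, Adss had 199.85 and 201 FPKM in WT against 65.1 and 94.2 FPKM in R111A. Its muscle form Adssl1 had 0.49 and 0.76 FPKM in WT against 2.51 and 2.59 FPKM in R111A. Of the AMP deaminases, Ampd2 had 26.7 and 25.6 FPKM in WT and 10.3 and 9.77 FPKM in R111A, and Ampd1, the muscle form, had 0.05 and 0.06 FPKM in WT and 2.84 and 2.80 FPKM in R111A. Adss and Ampd2 were lower in both R111A libraries, with log2 fold changes of −1.35 and −1.30 (adjusted p = 0.00037 and 0.00011), and Adssl1 and Ampd1 lay above WT in both. Ampd3, a further AMP deaminase under the filter that is named here after its values were seen, had 0.80 and 0.65 FPKM in WT against 0.42 and 0.18 FPKM in R111A.

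Among the nucleotide kinases, the mitochondrial kinase Ak3 had a log2 fold change of −1.22 (adjusted p = 0.00024), and Nme3, Nme4 and Nme6 of −1.15, −1.58 and −1.04 (adjusted p = 0.00019, 0.00015 and 0.00035). Ak4, also mitochondrial, had 3.27 and 3.63 FPKM in WT against 0.27 and 0.29 FPKM in R111A. Ak1 had 0 and 0.03 FPKM in WT against 2.47 and 2.88 FPKM in R111A, and Cmpk2, an interferon-induced kinase, had 0.15 and 0.04 FPKM in WT against 2.70 and 1.82 FPKM in R111A. Both were near 0 in WT and above 1 FPKM in each R111A library. The myeloid, B cell and erythroid marker sums given above were also low in WT and higher in R111A, at 0.66 to 2.22 FPKM in WT and 4.49 to 13.45 FPKM in R111A. The NK cell sum was lower in R111A, although its markers other than Nkg7 were higher. The libraries were made from cells enriched and sorted as CD4+ T cells. The part of other cells in the levels of Ak1, Cmpk2, Adssl1 and Ampd1 was not tested.

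**Figure D5:**
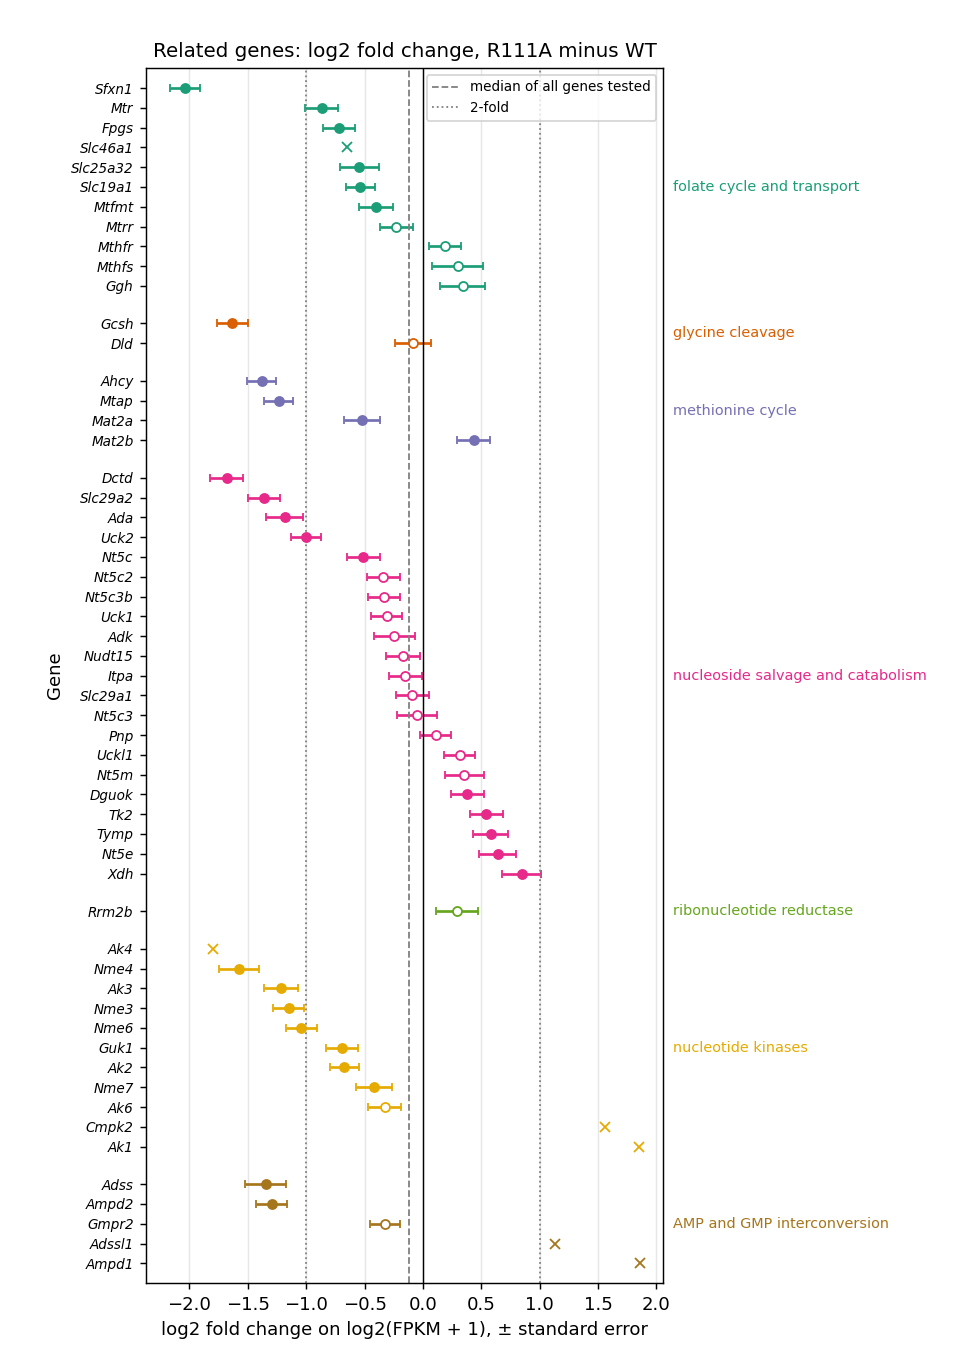
Log2 fold change of R111A over WT on log2(FPKM + 1) (x axis) of the related genes that passed the filter, all but 1 of which are drawn, by role (y axis), with bars of 1 standard error; filled points passed an adjusted p under 0.05, and crosses with no bar mark 6 genes that averaged under 1 FPKM in 1 of the groups. Of the filled points, 24 lie to the left of 0, down to Sfxn1 at −2.04, and the others to the right. The crosses of Ak4 and Slc46a1 lie to the left, and those of Ak1, Cmpk2, Adssl1 and Ampd1 to the right.

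Known regulators of these genes were read as well. Myc, which drives nucleotide and serine genes in activated lymphocytes, had 228 and 204 FPKM in WT against 128 and 87.6 FPKM in R111A. E2f1, a factor of S phase genes such as Tyms, Rrm2 and Tk1, had 8.08 and 7.97 FPKM in WT against 1.23 and 1.09 FPKM in R111A. Both were lower in each R111A library, with log2 fold changes of −1.02 (SE 0.182, adjusted p = 0.0019) and −2.06 (SE 0.138, adjusted p = 1.4e-05). Atf4, a factor of Phgdh, Psat1 and Mthfd2, had 265 and 268 FPKM in WT against 266 and 259 FPKM in R111A. Its groups overlapped, with a log2 fold change of −0.023 (SE 0.119, adjusted p = 0.88) that was 0.069 with median-of-ratios factors, 0.20 with quantile normalization and −0.36 with TPM, where it passed (adjusted p = 0.026, with a range from 0.026 to 0.97). Trp53 at −0.035 (SE 0.198, adjusted p = 0.90) did not pass, and its sign changed with the scaling (0.056 with median-of-ratios factors, 0.21 with quantile normalization). Trp53 passed as lower without R111A replicate 1 (−0.34, adjusted p = 0.036, with a range from 0.036 to 0.92). E2f2 passed the filter only through its R111A values and is given with no test, at 0.69 and 0.93 FPKM in WT against 1.48 and 1 FPKM in R111A. The mRNA level of a regulator says nothing of its activity.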

How the data were processed

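The authors selected polyA RNA, aligned the reads to mm10 and deposited 1 table of FPKM values with 1 column for each library. The submitters' processing notes name Bowtie2 (2.4.4) and RSEM (1.2.28), and the authors called genes with DESeq2, a step not repeated here. Since the deposited values are FPKM and not counts, log2(FPKM + 1) was fitted with limma (3.58.1, R 4.3.3, lmFit and eBayes with a trend) over the 9831 genes that averaged 1 FPKM or more, with Benjamini-Hochberg adjustment. Relative depth was read from the steps between values of 0.1 to 0.6 FPKM. Genes were matched to RefSeq GRCm38.p6 by NCBI gene ID (16107 of 16142). Shared windows were counted in GENCODE transcripts.

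The members and lists were chosen with earlier results of these data known. The text names every member, each related gene past both thresholds with a set of others (Rrm2b, Mthfd2l, Pnp, Adk, Dguok and Tk2), 5 regulators, Zc3h12a and CD4+ T cell markers. The related genes Xdh, Ampd3 and Slc46a1 were named after their values were seen. Markers of other cells are named where their sums are given. The values of 1 related gene and 2 reference genes are not reported here. Groups follow the sample labels, which do not say that libraries come from separate mice, so p-values measure the spread between these libraries only. Alternatives were other pseudocounts (0.1 and 5), no filter and a filter at 5 FPKM, TPM, median-of-ratios factors, quantile normalization, a replicate block, no trend, robust eBayes and leaving out each library. Counting only genes at 1 FPKM or more in each group was added after the values were seen. Ratios other than Tk1 to Tk2 are given with exact permutation tests.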

Additional observations from a re-analysis of the deposited data

How the results depend on the processing

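Over 14 alternatives, 30 to 34 of the 38 genes were lower and 2 or 3 higher. Of the 32 genes called lower, 29 were called in every alternative that tested them (Aprt, Gmps and Impdh1 were not), and so were Samhd1 and Ctps2, called higher. Past 2-fold, 20 genes were lower, but 12 with a pseudocount of 5 FPKM, 10 with quantile normalization, 17 with median-of-ratios factors and 29 with TPM, and 0 were higher, but 1 with a pseudocount of 0.1 FPKM and 2 each with quantile normalization and median-of-ratios factors. Counting only genes at 1 FPKM or more in each group, which was chosen after the values were seen, gave 31 lower (19 past 2-fold) and 2 higher of 37, and for the related genes 24 lower and 7 higher. Leaving out 1 library gave 18 to 20 and 0 to 1. The median of −1.04 became −0.90 with a pseudocount of 5 FPKM, −1.37 with TPM, −0.89 with quantile normalization and −0.95 with median-of-ratios factors, and −1.02 to −0.98 with 1 library left out. Of the related genes at the main filter, 26 were lower and 11 higher, where 32.1% and 21.2% of all genes tested were. The lower ones include Ak4 and Slc46a1, which passed the filter only through their WT values. The higher ones include Ak1, Cmpk2, Adssl1 and Ampd1, which passed it only through their R111A values. The count of higher ones was 5 with a filter at 5 FPKM, which tests fewer genes, and 5 with TPM. Both counts also moved with 1 library left out. Of all genes, 3152 were lower, but 5128 with TPM, and 1903 to 3883 with 1 library left out (1910 without WT replicate 1, 1903 without WT replicate 2), and 2088 were higher, but 1337 with TPM, and 1464 to 2504 with 1 library left out. A pseudocount of 5 FPKM shrinks every fold change, and TPM lowers every R111A value by the ratio of the library sums; for the other shifts the cause was not tested. In the fits without 1 library, the lone library is assumed to vary like the other group. Genes that did not pass changed sign for Dck (−0.094) and Nme2 (−0.15) with TPM, Pnp (−0.22) with TPM, Adk with 1 library left out (−0.50 to 0.014, the latter without R111A replicate 1), Atf4 with quantile normalization (0.20) and median-of-ratios factors (0.069), and Trp53 with quantile normalization (0.21), median-of-ratios factors (0.056) and with 1 library left out (−0.34 to 0.27, above 0 without WT replicate 1 or R111A replicate 2). A filter at 5 FPKM leaves out Tyms and Tk1. The labels of the groups share only the replicate numbers 1 and 2, and deviations of same-numbered libraries had a correlation of 0.111 across genes, which with 2 pairs does not establish pairing. With a replicate block, 33 of the 38 were lower and 2 higher (Cmpk1 was gained), and of all genes 3358 and 2236. The number of reads behind each value is unknown, so levels under 1 FPKM, such as Tk1 in R111A, have unknown counting error.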

Other observations

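Hprt is often used as a reference gene, so values of 9 other common reference genes are given, with no test, from a list chosen after the values of Hprt had been seen. In the WT and then the R111A libraries, Ppia was at 5976 and 6221, then 6059.6 and 7161 FPKM, with overlapping groups. Gapdh was at 2279.9 and 2069.8, then 915 and 794 FPKM. Actb was at 1934 and 1629.6, then 1349 and 987 FPKM. B2m was at 1559 and 1518, then 3652 and 4317 FPKM. Gusb was at 53.0 and 51.7, then 17.7 and 14.75 FPKM. On the log2 scale the difference of R111A from WT was 0.11 for Ppia, −1.35 for Gapdh, −0.62 for Actb, 1.37 for B2m, −1.64 for Gusb, −0.75 for Tbp, −0.74 for Pgk1, −0.55 for Ywhaz and −0.40 for Sdha, beside −0.87 for Hprt.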
